A study of Mus musculus with 4 samples.

Results

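The 10 genes described here are the class I genes of the mouse major histocompatibility complex (MHC) and the machinery that loads peptide onto them: H2-K1, H2-K2, H2-D1, B2m, Tap1, Tap2, Tapbp, Psmb8, Psmb9 and Nlrc5. They were chosen by name from the 23259 genes shared by the 4 files, with the result already known that H2-K2 was lower in both Gcn5-deleted clones, so the differences between KO and WT of these genes are given as a description and without a test. All 10 were found, and 9 reached a mean of 1 FPKM (fragments per kilobase of transcript and sequencing depth, a level corrected for transcript length) over the 4 libraries. Nlrc5 did not. The samples were RNA-sequencing libraries of 4 clones of mouse embryonic stem cells, 2 WT and 2 KO. Per the labels' protocols, founder lines 4 and 6 were derived from blastocysts of Gcn5 flox/flox mice. Each founder was transfected transiently with a vector for an EGFP-Cre fusion and sorted by GFP at 72 hours. Each line gave a WT clone without GFP (4-1 or 6-1, still Gcn5 flox/flox) and a KO clone that had shown GFP (4C2 or 6C4, with exons 3 to 18 of Gcn5 deleted on both alleles). Every group thus rests on single clones, 1 per line and genotype. The lines were kept on feeder fibroblasts in 15% serum with 1000 U/mL of LIF, and no interferon is named in the labels' protocols. The sources used here do not give the strain of the mice.

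MHC class I molecules present short peptides from inside the cell to CD8+ T cells and to natural killer cells. A heavy chain such as H2-K or H2-D pairs with the small subunit B2m in the endoplasmic reticulum. Peptides are cut by the proteasome, of which Psmb8 and Psmb9 are interferon-inducible catalytic subunits, pumped in by the Tap1-Tap2 transporter and loaded with the help of tapasin (Tapbp). Interferon raises all of these genes through STAT and IRF factors, and the coactivator Nlrc5 acts on class I promoters through factors bound to their X and Y boxes. Embryonic stem cells are known for low surface levels of class I. Gcn5, encoded by Kat2a, acetylates histones as part of SAGA and of a related coactivator complex.

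The promoters are shown because the heavy chains, B2m and the Tap1-Psmb9 pair are known to be controlled through short shared elements. The windows run from 250 bases before to 50 bases after the annotated start (RefSeq, GRCm38.p6), and 7 of the 10 genes had one. They are chr17:34000298-34000597 on the minus strand for H2-K1, chr17:35262844-35263143 on the plus strand for H2-D1, chr2:122147437-122147736 on the plus strand for B2m and chr17:34187306-34187605 on the plus strand for Tap1. Capitals mark 4 sets of letters, searched on both strands and picked after the windows had been seen: GGGGATTCC of the kappaB element, TTTCNNTT of the interferon response element, TGACG of the X2 box and ATTGG, the reverse of CCAAT, of the Y box.
H2-K1: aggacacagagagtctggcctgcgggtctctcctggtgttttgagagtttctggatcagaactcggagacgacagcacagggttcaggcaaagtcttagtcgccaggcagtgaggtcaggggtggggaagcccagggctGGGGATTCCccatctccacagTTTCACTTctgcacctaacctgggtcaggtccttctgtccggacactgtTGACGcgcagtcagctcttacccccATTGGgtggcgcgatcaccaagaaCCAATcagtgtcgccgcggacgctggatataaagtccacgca
H2-D1: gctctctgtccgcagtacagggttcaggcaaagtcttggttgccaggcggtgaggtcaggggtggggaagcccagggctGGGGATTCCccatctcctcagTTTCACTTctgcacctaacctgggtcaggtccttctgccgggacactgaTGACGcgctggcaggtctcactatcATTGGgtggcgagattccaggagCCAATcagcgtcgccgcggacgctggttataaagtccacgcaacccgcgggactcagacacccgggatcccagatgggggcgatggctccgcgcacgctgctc
B2m: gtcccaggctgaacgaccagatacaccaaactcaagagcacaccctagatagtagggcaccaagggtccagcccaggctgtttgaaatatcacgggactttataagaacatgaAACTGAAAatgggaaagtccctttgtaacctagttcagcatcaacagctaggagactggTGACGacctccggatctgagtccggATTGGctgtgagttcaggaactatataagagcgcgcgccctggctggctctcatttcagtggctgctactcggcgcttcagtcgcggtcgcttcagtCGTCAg
Tap1: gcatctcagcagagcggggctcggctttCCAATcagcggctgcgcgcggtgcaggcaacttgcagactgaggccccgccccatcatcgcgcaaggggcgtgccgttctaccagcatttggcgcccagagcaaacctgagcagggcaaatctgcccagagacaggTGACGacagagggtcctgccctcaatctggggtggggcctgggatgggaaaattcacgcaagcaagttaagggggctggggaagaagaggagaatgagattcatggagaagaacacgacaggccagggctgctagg
In H2-K1, H2-D1 and B2m the X2 and Y letters lay exactly 20 bases apart and in the same direction. Of 27025 promoter windows 26, or 0.0962%, held that arrangement. The spacing and direction, like the letters, were fixed with these windows in view, so this share is not a test. The closely similar windows of H2-K1 and H2-D1 are also not independent matches. The 26 also included the class Ib gene H2-M3. The kappaB letters stood in H2-K1 and H2-D1, against 0.259% of all windows. The interferon response letters were in H2-K1, H2-D1 and B2m, against 24.2% of all windows. X2 letters alone were in 5 of the 7 windows (21.0% of all) and Y letters alone in 6 (37.9% of all). The windows of H2-K1 and H2-D1 aligned over 228 columns with 206 identical, 90.4%. Tap1 and Psmb9 are transcribed in opposite directions from 1 stretch: 275 bases of the Tap1 window are also the Psmb9 window, on the other strand. A match is a description of letters and not a shown binding site.

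**Figure D1:**
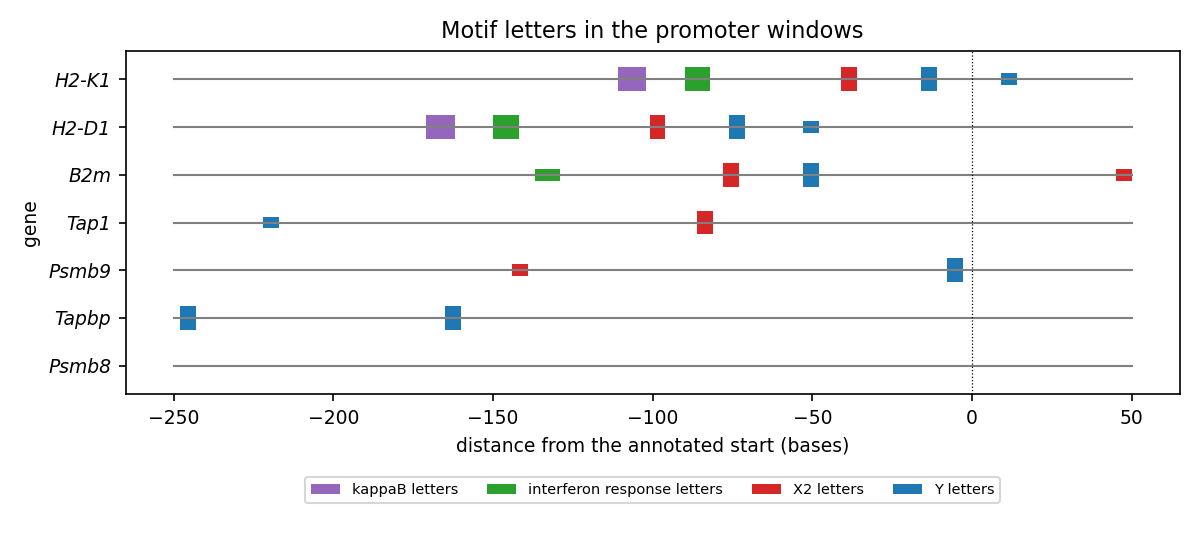
Positions of the 4 sets of letters (colours) in the promoter windows of 7 genes, by distance from the annotated start in bases; tall bars lie on the strand of the gene and short bars on the other. H2-K1, H2-D1 and B2m share an X2 and Y pair 20 bases apart.

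On the deposited scale most transcripts were lower in KO, and by more in line 4. The median difference of the 11932 tested genes on the log2(FPKM + 1) scale, which understates changes of low genes, was -0.44 in line 4 and -0.19 in line 6, and 86.3% were lower in KO of both lines. Kat2a, the deleted gene, stood at 38.7 and 34.4 FPKM in the WT clones of lines 4 and 6 and at 11.5 and 11.5 FPKM in the KO clones (limma adjusted p = 0.0112; 0.0469 with centring and the founder line as a block), in the direction of the labels. Its call was lost, with 0 genes called at all, after centring alone, after quantile normalization, with no filter and without either KO clone. The files give 1 value per gene and not per exon, so this checks the direction and not the deletion itself. Depth is unknown, since the files give no counts. The stem cell marker Pou5f1 was high in every library, at 454 to 782 FPKM. Feeder fibroblast markers were present as well. Their summed level over 20 genes was 288 FPKM in WT and 225 FPKM in KO of line 4, and 203 FPKM in WT and 263 FPKM in KO of line 6, so it went down in KO of line 4 and up in KO of line 6. All 17 tested fibroblast markers differed in opposite directions in the lines. Of 15 immune cell markers, 14 were found and 2 (Cd68 and Lyz2) were tested. Cd68 stood at 13.2 (WT) and 8.11 FPKM (KO) in line 4, and at 8.84 (WT) and 7.77 FPKM (KO) in line 6. Lyz2 stood at 2.36 (WT) and 2.87 FPKM (KO) in line 4, and at 0.125 (WT) and 0.814 FPKM (KO) in line 6. The others had means below 1 FPKM, and Ptprc, which marks blood cells, was near the value of genes without signal. Fibroblasts express class I genes, so in these bulk libraries a share of feeder RNA and a level in the stem cells cannot be told apart. Fewer cells of a type and less RNA per cell cannot be told apart either.

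H2-K1, the classical heavy chain of the K locus, was the highest heavy chain. It stood at 28.5 (WT) and 19.3 FPKM (KO) in line 4, and at 29.1 (WT) and 17.8 FPKM (KO) in line 6. Both WT clones lay above both KO clones, with means of 28.8 ± 0.454 FPKM and 18.6 ± 1.04 FPKM (SD, n = 2). The difference of KO from WT was -0.54 in line 4 and -0.68 in line 6 on the log2 scale. Relative to the median gene it was -0.09 in line 4 and -0.49 in line 6, so in line 4 the difference of H2-K1 was close to that of the median transcript. In line 6, 110 of 11932 tested genes lay further below WT than H2-K1, and in line 4 3065 did. Feeder markers were higher in KO of line 6, where H2-K1 was lower, and their part in the level of H2-K1 was not tested.

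H2-K2, a neighbour of H2-K1 that the RefSeq annotation calls a transcribed pseudogene (chr17:33974659-33978791, GRCm38.p6), chose this set of genes. It stood at 8.72 (WT) and 3.44 FPKM (KO) in line 4, a KO/WT ratio of 0.395, and at 5.35 (WT) and 2.20 FPKM (KO) in line 6, a ratio of 0.412. Both KO clones lay below both WT clones. The log2 differences were -1.13 and -0.99 (mean -1.06), or -0.68 and -0.80 from the median gene of the same line. Of the tested genes, 36 lay further below WT in line 4, 44 in line 6 and 3 in both, and 0.0419% of tested genes were lower by at least 1 in both lines. H2-K2 just missed that in line 6. The level of H2-K2 as a percentage of that of H2-K1, both per length, was 30.65% in WT and 17.8% in KO of line 4 and 18.4% in WT and 12.35% in KO of line 6.

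H2-D1, the classical heavy chain of the D locus, was listed at 11.7 (WT) and 7.82 FPKM (KO) in line 4, and at 11.02 (WT) and 8.72 FPKM (KO) in line 6. The WT clones lay above the KO clones, with log2 differences of -0.53 and -0.31. These are -0.08 and -0.12 from the median gene. H2-K1 exceeded H2-D1 by 2.43, 2.47, 2.64 and 2.05 times in WT and KO of line 4 and WT and KO of line 6. Heavy chain genes are near copies of each other, which can split or lose reads in counting. In the GENCODE M21 transcripts (GRCm38, from C57BL/6J), 8.79% of the 50-base stretches of H2-K1, 10.9% of H2-K2 and 14.3% of H2-D1 also occurred in a transcript of another gene. H2-K2 shared 0.988% of its stretches with H2-K1 and 3.95% with H2-D1. For B2m, Psmb8, Psmb9 and Nlrc5 the share was 0. How the authors' counting treated shared reads, and which class I alleles these lines carry, are not stated in the sources used here, so heavy chain values are uncertain in a way that those of B2m are not.

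B2m, encoded on chromosome 2 and the invariant partner of heavy chains such as H2-K and H2-D, was as abundant as H2-K1. It stood at 28.1 (WT) and 18.7 FPKM (KO) in line 4, and at 22.2 (WT) and 24.1 FPKM (KO) in line 6. The lines went in opposite directions, at -0.56 and 0.12 on the log2 scale, and the WT and KO clones overlapped. Relative to the median gene B2m lay at -0.12 in line 4 and 0.30 in line 6. The ratio of H2-K1 to B2m was 1.01 in WT and 1.03 in KO of line 4, and 1.31 in WT and 0.739 in KO of line 6. The heavy chain and its partner thus kept their ratio in line 4 and not in line 6, where the feeder markers were also higher in KO; their part in this was not tested.

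**Figure D2:**
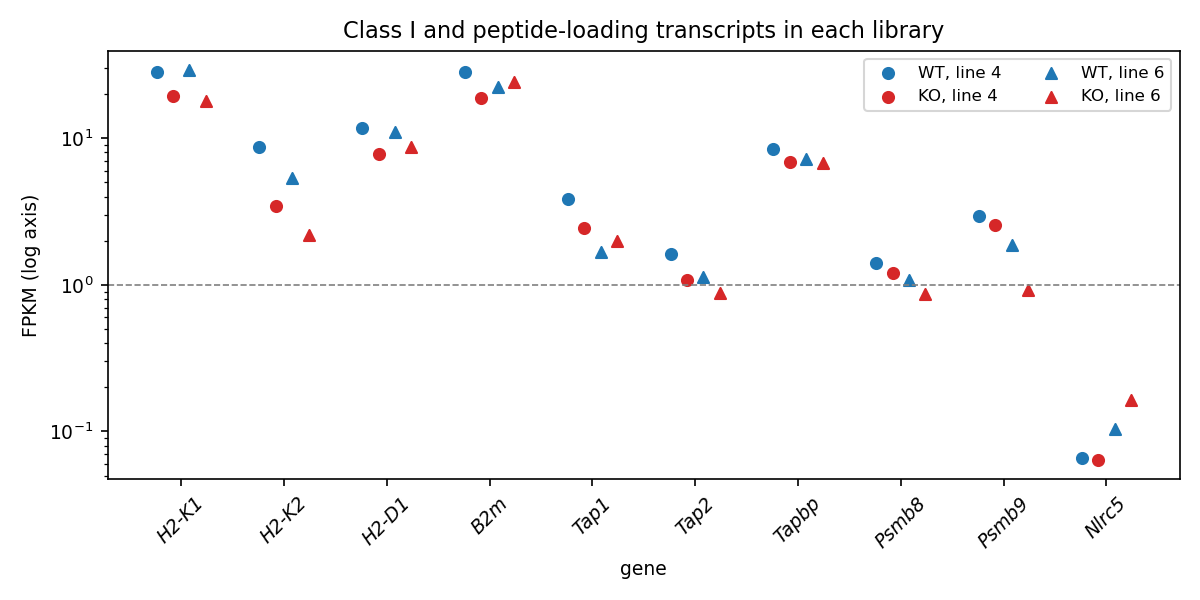
FPKM on a log axis for each of the 10 genes in WT (blue) and KO (red) of line 4 (circles) and line 6 (triangles), 1 point per library, with a dashed line at 1 FPKM. H2-K1 and B2m lie between 17.8 and 29.1 FPKM, and Nlrc5 lies below 0.2 FPKM in every library.

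The peptide transporter was expressed at a low level. Tap1 was listed at 3.82 (WT) and 2.45 FPKM (KO) in line 4, and at 1.68 (WT) and 2.00 FPKM (KO) in line 6. KO was below WT in line 4 (-0.48) and above it in line 6 (0.17), while both clones of line 6 lay below both of line 4. Tap2, the other subunit, stood at 1.63 (WT) and 1.08 FPKM (KO) in line 4, and at 1.12 (WT) and 0.879 FPKM (KO) in line 6. Both KO clones were below both WT clones, at -0.34 and -0.18, and above the median gene of each line by 0.11 and 0.0092. Tap1 exceeded Tap2 by 2.34 and 2.26 times in WT and KO of line 4, by 1.49 times in WT of line 6 and by 2.28 times in KO of line 6. Tapbp, the bridge between the transporter and the heavy chain, was listed at 8.45 (WT) and 6.92 FPKM (KO) in line 4, and at 7.24 (WT) and 6.79 FPKM (KO) in line 6. Its differences, -0.26 and -0.08, were smaller than those of the median gene in both lines.

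Of the immunoproteasome subunits, Psmb8 and Psmb9 were low, at 0.859 to 2.93 FPKM. Psmb9, which shares its promoter stretch with Tap1, stood at 2.93 (WT) and 2.57 FPKM (KO) in line 4, and at 1.88 (WT) and 0.922 FPKM (KO) in line 6. Both clones of line 6 were below both of line 4, and the KO clone of line 6 was the lowest. Its log2 differences from WT were -0.14 in line 4 and -0.58 in line 6, where 182 tested genes lay further below WT. In KO of line 6 Tap1 and Psmb9, from the same promoter stretch, therefore lay on opposite sides of WT. Psmb8 was listed at 1.40 (WT) and 1.20 FPKM (KO) in line 4, and at 1.08 (WT) and 0.859 FPKM (KO) in line 6, with differences of -0.13 and -0.16. The constitutive subunits that they replace were far higher. Psmb5 exceeded Psmb8 by 91.7 to 166 times and Psmb6 exceeded Psmb9 by 65.2 to 236 times over the 4 libraries. Psmb10, the remaining interferon-inducible subunit, stood at 12.7 to 21.1 FPKM. It was closer to its counterpart, with Psmb7 above it by 16.7 to 19.9 times.

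Nlrc5, the class I coactivator, was nearly silent on chromosome 8. It was listed at 0.0655 (WT) and 0.0643 FPKM (KO) in line 4, and at 0.103 (WT) and 0.163 FPKM (KO) in line 6. The value of genes without signal was 0.00937 to 0.0107 FPKM. The clones of line 6 were the higher ones, at a level where the files without counts do not show how many reads were behind a value. Nlrc5 did not reach the mean level of 1 FPKM and entered no test.

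Of the 9 genes that reached the mean level, 7 (77.8%) were lower in KO of both lines, against 86.3% of all tested genes. All 9 were lower in KO of line 4, against 97.6% of all tested genes, and 7 in KO of line 6, against 87.7%. In 5 (55.6%), H2-K1, H2-K2, H2-D1, Tap2 and Tapbp, the KO clones lay below the WT clones without overlap, against 59.8% of all tested genes. B2m and Tap1 had opposite directions in the lines, 22.2% against 12.7%. The median of the 9 was -0.48 in line 4 and -0.18 in line 6, beside -0.44 and -0.19 over all tested genes. The 3 heavy chain genes were the ones below the median gene in both lines, a count for which no share over all tested genes was taken. The other shares are near those of all genes. Nothing is read from any of these counts, since the contrast had a part in the choice of the genes. With each library centred on its median, the mean difference was -0.75 for H2-K2, -0.30 for H2-K1 and -0.11 for H2-D1. For Psmb9 it was -0.05, the mean of 0.31 in line 4 and -0.40 in line 6, and uncentred its mean of -0.36 became 0.09 without the KO clone of line 6. The means of B2m, Tap1, Tap2, Tapbp and Psmb8 turned positive with centring (0.08, 0.15, 0.05, 0.14 and 0.16).

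**Figure D3:**
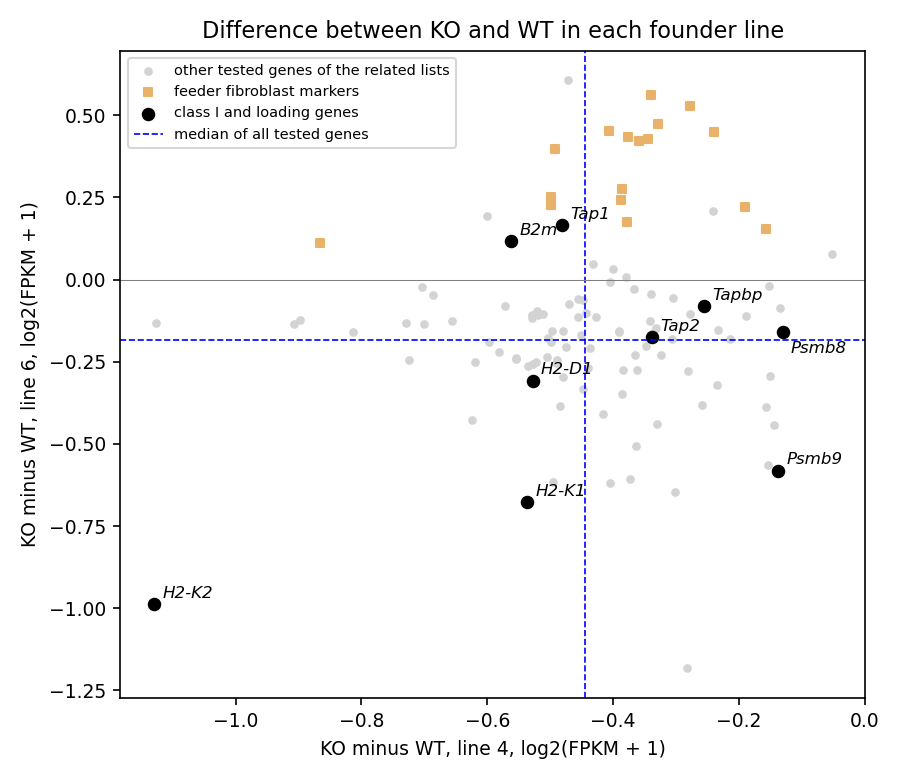
KO minus WT on the log2(FPKM + 1) scale in line 4 (horizontal) and line 6 (vertical) for the 9 class I and loading genes (black), the other tested genes of the related lists (grey) and feeder fibroblast markers (orange squares); dashed lines mark the median of all tested genes. H2-K2 lies at -1.13 and -0.99, and B2m and Tap1 lie above 0 in line 6, as the feeder markers do.

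The founder lines were then compared, line 6 with line 4, which is separate from the contrast that chose the genes. Each line holds 1 WT and 1 KO clone, so these p-values rest on 2 clones of 1 founder each. The values of genes without signal differ between the lines in a way that points to separate scaling of the lines, so each test was also run after quantile normalization of all 4 libraries. As deposited, 1.98% of tested genes passed (236 of 11932), and 0 of the 9 genes did, with 1 at an unadjusted p under 0.05 (8.62% of all tested genes). Of all tested genes 0.947% passed as higher and 1.03% as lower in line 6. Psmb9 had the largest difference, from 2.75 ± 0.253 FPKM in line 4 to 1.40 ± 0.675 FPKM in line 6 (SD, n = 2; log2 difference -0.67, SE 0.26, limma adjusted p = 0.242). Tap1 went from 3.14 ± 0.968 FPKM to 1.84 ± 0.231 FPKM (SD, n = 2; -0.53, SE 0.27, limma adjusted p = 0.589). After quantile normalization both passed (Tap1 -0.50, limma adjusted p = 0.0339, and Psmb9 -0.66, limma adjusted p = 0.0467). So did 3865 of all 11932 tested genes, so a pass in that setting was common. With genotype as a block Psmb9 passed (limma adjusted p = 0.015) and Tap1 did not (limma adjusted p = 0.0881), beside 1089 of all tested genes that passed. H2-K2 was lower in line 6 by 0.54 (SE 0.31, limma adjusted p = 0.67; 0.288 after quantile normalization). With each library centred on its median and genotype as a block, H2-K2 (-0.50, limma adjusted p = 0.0204) and Tap1 (limma adjusted p = 0.041) passed and Psmb9 did not (limma adjusted p = 0.0629). In that fit 3531 of all 11932 tested genes passed. The SE of H2-K2 was 0.10 in that fit and 0.31 with centring alone. With the block the spread is how far KO minus WT differs between the lines. H2-K2 was chosen as lower in KO of both lines. Its p with the block is thus not separate from that choice. The differences moved when a clone of line 4 was left out. Without its KO clone, line 4 was a WT clone alone and line 6 a WT and a KO clone. Line and genotype were then mixed, so no p is given. The differences were -1.11 for H2-K2, -0.77 for Tap1 and -0.74 for Psmb9. Without the WT clone of line 4, which mixes line and genotype the other way, the difference of H2-K2 was 0.02.

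Tap1, Psmb8 and Psmb9, neighbours between 34182030 and 34201454 on chromosome 17 (GRCm38.p6), were the 3 genes with both line 6 clones below both line 4 clones, 33.3% of the 9 against 17.4% of all tested genes. H2-K1, H2-D1 and B2m differed between the lines by -0.04, 0.03 and 0.01, with SEs of 0.34 each as deposited. After quantile normalization, where Tap1 passed, they differed by -0.02, 0.07 and 0.04, with SEs of 0.15, 0.09 and 0.12. Tap2, Psmb8 and Tapbp were lower in line 6 by 0.23, 0.23 and 0.11 and did not pass (limma adjusted p of 0.991, 0.994 and 0.999). Of the 17 tested feeder fibroblast markers 12 were lower in line 6, with a median of -0.24, and the 1 that passed as deposited, the chemokine Ccl2, was higher in line 6 (1.91, limma adjusted p = 1.16e-06). The collagen Col3a1 was lower (-0.98) and did not pass (limma adjusted p = 0.133). After quantile normalization it passed (limma adjusted p = 0.013), as did 3865 of all 11932 tested genes. The part of these markers in the lower Tap1 and Psmb9 was not tested.

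**Figure D4:**
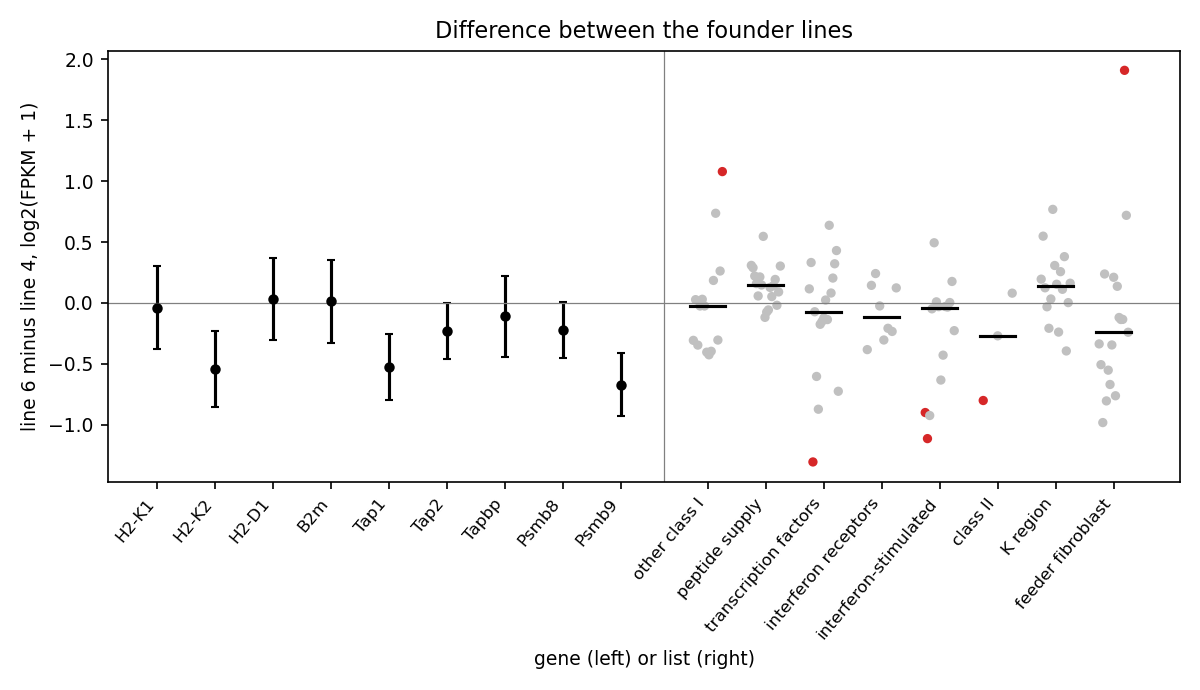
Line 6 minus line 4 on the log2(FPKM + 1) scale. Left, each of the 9 genes with its SE from limma; right, the tested genes of each list (red where the limma adjusted p is under 0.05) with the median as a bar. Psmb9, H2-K2 and Tap1 are the lowest of the 9, and Irf8 and Oas1a are among the red points below 0.

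Other genes of the pathway were read from 7 related lists of 138 genes, of which 131 were found and 90 tested. Between KO and WT limma called 0 of the 90 after adjustment, against 0.0168% of all tested genes, and 5 had an unadjusted p under 0.05, against 5.54% of all tested genes. With the founder line as a block 1 of the 90 passed, beside 95 of all 11932 tested genes. This was H2-Q2, a class Ib heavy chain named here after its values were seen. H2-Q2 was listed at 1.81 and 1.31 FPKM in WT and KO of line 4 and at 2.10 and 0.364 FPKM in line 6 (limma adjusted p = 0.445 without and 0.024 with the block). With centring and the block it did not pass (limma adjusted p = 0.863), and from the median gene it lay at 0.16 in line 4 and -0.998 in line 6. Without the WT clone of line 6, 1 of the 90 passed. The list of other class I heavy chains also held class I-like genes such as Raet1d, Raet1e and Fcgrt. All 14 tested genes of this list were lower in KO of both lines, as were 86.3% of all tested genes. Their medians of -0.52 and -0.24 lay below the median gene by 0.07 and 0.06. In both lines 6 of the 14 lay below it, a count for which no share over all tested genes was taken. H2-T23, which encodes the heavy chain Qa-1, was the most abundant, at 13.0 and 7.60 FPKM in WT and KO of line 4 and 11.6 and 11.4 FPKM in line 6. The peptide supply list had medians of -0.46 and -0.18. Its most abundant genes were the chaperone Calr, at 255 to 362 FPKM, and the proteasome subunit Psmb7, at 253 to 352 FPKM.

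Between the lines, limma called 5 of the 90 related genes, 1 higher and 4 lower in line 6, beside 1.98% of all tested genes (0.947% higher and 1.03% lower). The count was 11 without the WT clone and 12 without the KO clone of line 4, where 853 and 1607 of all tested genes passed. It was 0 without either the WT or the KO clone of line 6, where 7 and 21 passed. Irf8, an interferon regulatory factor, fell from 3.51 and 1.42 FPKM in WT and KO of line 4 to 0.395 and 0.280 FPKM in line 6 (log2 difference -1.31, SE 0.23, limma adjusted p = 4.32e-06). Of 14 tested interferon-stimulated genes, 10 were lower in line 6 and 2 of these passed. Oas1a, which encodes a sensor of double-stranded RNA, stood at 2.66 and 1.77 FPKM in line 4 and 0.454 and 0.487 FPKM in line 6 (-1.12, limma adjusted p = 0.000286). Isg15, a ubiquitin-like modifier, stood at 2.32 and 1.39 FPKM against 0.222 and 0.861 FPKM (-0.90, limma adjusted p = 0.00703). The list as a whole had a median of -0.04. Isg15 was called without but not with quantile normalization (limma adjusted p = 0.0504). The class II chain H2-Ab1 fell from 2.82 and 1.68 FPKM to 0.906 and 0.771 FPKM (-0.80, limma adjusted p = 0.0469). Raet1e, a ligand of the natural killer receptor NKG2D, rose from 4.70 and 2.76 FPKM to 9.44 and 8.16 FPKM (1.08, limma adjusted p = 0.0431). Stat2, a mediator of interferon signalling, had a difference of -0.87 and did not pass (limma adjusted p = 0.159). After quantile normalization it passed (limma adjusted p = 0.0058), as did 3865 of all 11932 tested genes.

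The remaining lists held few calls between the lines. None of the 8 interferon receptor and kinase genes passed as deposited (0 at an unadjusted p under 0.05 by limma); Jak1 and Ifngr1 had the lowest p, at -0.31 and -0.38. Of 18 peptide supply genes 0 passed in limma, with 1 at an unadjusted p under 0.05, Erap1, the trimming peptidase (1.33 and 1.01 FPKM in line 4, 2.37 and 1.97 FPKM in line 6). After quantile normalization 5 of the 18 passed, Erap1 among them (limma adjusted p = 0.0139), beside 3865 of all 11932 tested genes. Among 16 tested neighbours of H2-K1 on chromosome 17, 0 passed in limma, with 1 at an unadjusted p under 0.05, Wdr46, at 34.4 and 26.04 FPKM in line 4 and 54.7 and 48.9 FPKM in line 6. With genotype as a block 1 neighbour passed, Wdr46 (limma adjusted p = 0.00366), beside 1089 of all 11932 tested genes. After quantile normalization 6 neighbours did, Wdr46 among them (limma adjusted p = 0.00494), beside 3865 of all tested genes. All 16 were lower in KO of both lines, as were 86.3% of all tested genes. Their medians of -0.40 and -0.13 lay above the median gene. Of the 16, 2 lay below the median gene in both lines, Rps18 (-0.18 and -0.24 from the median gene) and Brd2 (-0.08 and -0.07). H2-K1 and H2-K2 also lay below it in both lines. No share over all tested genes was taken for this count, so nothing is read from it. Lyz2, an immune marker, fell in line 6 as well, from 2.36 and 2.87 FPKM to 0.125 and 0.814 FPKM (-1.34, limma adjusted p = 5.22e-06).

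The genes with the pattern most like that of H2-K2 were sought by the distance of log2 values, each centred on the gene's own mean, over the 4 libraries. The nearest was Pla2g2a, a secreted phospholipase, at a distance of 0.0592, with 3.35 and 1.04 FPKM in WT and KO of line 4 and 1.85 and 0.391 FPKM in line 6. BC107364 (0.151), 4930487H11Rik (0.314), Tmem181d-ps (0.317) and Mir425 (0.349) followed. None of the other 8 tested class I and loading genes was among the 5 nearest.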

How the data were processed

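Expression was measured by stranded, ribosomal-depleted total RNA sequencing of 4 mouse embryonic stem cell clones with ERCC spike-ins. Per the file headers, the authors deposited FPKM per gene after normalization to the spike-ins. Bowtie 0.12.8, TopHat2 2.0.9, affy, HTSeq, edgeR and the mm9 build are listed, with no roles, in the submitters' processing notes. Within each line the genes without signal were the same in WT and KO (4112 in line 4, 4319 in line 6), and the geometric mean of their values was 0.01 FPKM, so each line seems to have been scaled by itself.

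The 11932 of 23259 genes whose 4 libraries averaged 1 FPKM or more were tested on log2(FPKM + 1) with limma 3.58.1 in R 4.3.3 (moderated with a trend, two-sided, Benjamini-Hochberg over all tested genes, threshold 0.05). The script was tested on simulated data. Replicate numbers follow the founder line in the clone names and pair the samples; deviations from the group means of same-numbered samples correlated at r = 0.70. P-values take in no spread beyond these clones. In the line fit as deposited, in that with the genotype block and in the KO fit with the replicate block, limma moderated fully. The SE of a gene there came from the trend over all tested genes at its level and not from its own values. Without the genotype block, the line fits also counted the difference of KO from WT as spread. Named genes were the 10 genes, Kat2a, up to 2 tested genes of each list by level and up to 2 by p between the lines, and the 5 nearest to H2-K2. The genes and lists were chosen with earlier results of these data known. Alternatives were a replicate or genotype block, centring, quantile normalization, a pseudocount of 0.1 FPKM, no filter, and leaving out each library. Promoter windows (RefSeq, GRCm38.p6) and transcripts (GENCODE M21) are of another build than mm9 and were used for sequence only.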

Additional observations from a re-analysis of the deposited data

Results flagged for a closer look

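Of the genes named here, 9 had a KO clone below WT in line 4 and above it in line 6, as did the rest of the 17 tested fibroblast markers and some other genes of the lists. With 1 clone per line and genotype the difference between the lines could not be tested. The distance between the log2 differences of the lines was 0.678 for B2m (-0.56 in line 4, 0.12 in line 6), 0.647 for Tap1 (-0.48 and 0.17) and 0.0779 for Nlrc5, which is near the level of genes without signal. Among interferon-stimulated genes it was 0.433 for Oas1a and 1.08 for Isg15 (-0.47 and 0.61). Among feeder fibroblast markers it was 0.688 for Thbs1, 0.779 for Col1a2, 0.413 for Ccl2 and 0.663 for Col3a1. Opposite directions were seen in 12.7% of all tested genes.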

How the results depend on the processing

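The number of genes called between KO and WT, 2 as reported, was 95 with the replicate block, 0 with each library centred on its median, 33 with centring and the replicate block, 0 after quantile normalization, 0 with no filter on low values and 0 to 133 leaving out 1 library at a time (20 without the WT clone of line 4, 133 without that of line 6, 0 without either KO clone). Of the related list genes, 0 as reported, 1 was called with the replicate block and 0 to 1 leaving out 1 library. The replicate block changed no other call named in the report. The median KO minus WT of the 9 genes, -0.26, was 0.049 after centring with or without the replicate block, and ran from -0.46 to -0.10 leaving out 1 library. Between the lines, 236 genes were called as reported, 1089 with the genotype block, 3602 after centring, 3531 after centring with the genotype block, 3865 after quantile normalization, 0 with no filter and 7 to 1607 leaving out 1 library (853 and 1607 without the WT and KO clones of line 4, 7 and 21 without those of line 6). The related list genes called, 5 as reported, were 12, 30, 27 and 31 under the first 4 of these settings, 0 with no filter and 0 to 12 leaving out 1 library. Of the 9 genes, 0 as reported, 1, 2, 2 and 2 were called under those 4 settings and 0 to 3 leaving out 1 library. Leaving out 1 library left 1 clone in a group and mixed line with genotype in those fits. The cause of the changes was not tested. As the files give no counts, the depth behind low genes such as Psmb8, Tap2 and Nlrc5 is unknown.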

Other observations

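Some class Ib genes had almost the same values, and they were picked here after their values were seen. H2-Q7 and H2-Q9 were listed at 1.49 and 1.501 FPKM in WT of line 4, 0.737 and 0.744 FPKM in KO of line 4, 1.12 and 1.13 FPKM in WT of line 6, and 0.968 and 0.977 FPKM in KO of line 6. H2-T9, H2-T22 and H2-Bl stood at 5.10, 4.67 and 4.48 FPKM in WT of line 4 and at 2.52, 2.32 and 2.16 FPKM in KO of line 6. In the GENCODE M21 transcripts 44.7% of the 50-base stretches of H2-T22 and 34.9% of those of H2-Q7 occur in a transcript of another gene, most often H2-T10 and H2-Q6. Sharing within the pair and the trio named here was not measured, and the cause of the close values was not tested.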
